A study of Rattus norvegicus with 6 samples.

Results

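Imprinted growth genes are the 8 genes Plagl1, Grb10, Slc38a4, Cdkn1c, Dlk1, Mest, Peg3 and Ndn. They are a list of names written with earlier results of these data known, and followed here in cultured rat testis cells of different ages. Probe sets with exactly 1 gene symbol were used, and 7 of the 8 genes had such a probe set, 1 each, among the 14506 genes measured. Peg3 was not analysed here. The 21-day-old group held 3 arrays of cells labelled as Sertoli cells from pubertal testis, after the phase of proliferation according to the labels. The 9-day-old group held 3 arrays of the same labelled cell type from neonatal testis, within that phase. Both groups were primary cultures: the testes were digested to a suspension and the cells were grown in DMEM/F12 with 10% fetal bovine serum, with a medium change after 24 hours. No transgene, deletion or drug is named for any sample, and the sources used here give neither the strain nor the number of rats nor whether rats were pooled. All values are log2 signals of the Affymetrix arrays, which are relative and have no true zero.

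An imprinted gene is read mainly from the copy inherited from 1 parent, and the other copy is held silent by marks laid down in the germ line. Many imprinted genes act on fetal and early postnatal growth, and in mouse several of them are co-regulated, with the zinc finger factor Plagl1 acting on others such as Igf2, H19, Cdkn1c and Dlk1. In organs of young mice and rats, Plagl1, Dlk1, Mest, Peg3 and Igf2 are known to decline after birth as growth slows. The imprinting itself cannot be read from these arrays, which do not separate the parental copies. Sertoli cells divide in the neonatal testis and stop dividing around puberty.

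Imprinted genes often have promoters rich in CpG, the dinucleotide that carries DNA methylation, and the 4 promoters below are shown because their genes differed the most in this list: Plagl1, Dlk1 and Grb10, whose signals were lower at 21 days, and Slc38a4, whose mean was higher through 1 of its arrays. The sequences are those of the RefSeq table for build GRCr8, 250 bases before to 50 after the annotated start, written 5′ to 3′ with each CpG in capitals. Entries were found for 7 of the 8 genes, and Cdkn1c was the missing one.
Plagl1 (GRCr8, chr1:9297214-9297513, plus strand): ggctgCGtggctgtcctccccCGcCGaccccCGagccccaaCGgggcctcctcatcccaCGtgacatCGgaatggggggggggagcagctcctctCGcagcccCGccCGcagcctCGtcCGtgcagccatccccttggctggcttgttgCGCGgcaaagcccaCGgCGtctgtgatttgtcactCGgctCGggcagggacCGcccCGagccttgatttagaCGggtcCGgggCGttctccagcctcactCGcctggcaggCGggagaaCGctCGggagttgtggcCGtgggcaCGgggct
Dlk1 (GRCr8, chr6:134192347-134192646, plus strand): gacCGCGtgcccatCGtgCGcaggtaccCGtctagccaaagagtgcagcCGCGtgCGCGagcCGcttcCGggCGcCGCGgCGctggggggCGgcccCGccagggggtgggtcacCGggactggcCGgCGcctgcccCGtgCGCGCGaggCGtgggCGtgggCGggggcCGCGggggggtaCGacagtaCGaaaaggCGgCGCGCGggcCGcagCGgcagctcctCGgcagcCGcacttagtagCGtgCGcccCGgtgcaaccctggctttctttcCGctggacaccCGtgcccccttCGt
Grb10 (GRCr8, chr14:90816338-90816637, minus strand): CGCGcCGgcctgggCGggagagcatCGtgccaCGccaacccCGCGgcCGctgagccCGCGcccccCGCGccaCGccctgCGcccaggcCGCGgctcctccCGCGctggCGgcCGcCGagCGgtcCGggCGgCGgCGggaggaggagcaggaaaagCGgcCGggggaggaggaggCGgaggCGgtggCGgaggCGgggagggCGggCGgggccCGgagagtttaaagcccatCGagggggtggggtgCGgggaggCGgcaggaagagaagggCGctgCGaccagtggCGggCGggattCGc
Slc38a4 (GRCr8, chr7:130082120-130082419, minus strand): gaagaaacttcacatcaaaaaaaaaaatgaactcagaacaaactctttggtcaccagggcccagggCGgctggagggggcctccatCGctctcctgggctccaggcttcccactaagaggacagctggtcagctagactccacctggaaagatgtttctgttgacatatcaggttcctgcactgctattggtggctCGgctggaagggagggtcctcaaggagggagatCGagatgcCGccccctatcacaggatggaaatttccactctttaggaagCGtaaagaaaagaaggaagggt

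The Dlk1 window held 45 CpG and the Grb10 window 44, the Plagl1 window 29 and the Slc38a4 window 6. The median over the promoters of 11968 measured genes was 16.0 for the same length. The windows of Mest and Ndn, whose means were also lower at 21 days by small amounts, lay near that median, with 18 and 14, and that of Peg3 held 16. With 7 windows, and 4 of them picked for the size of the difference, no relation between CpG and the difference was tested. GGGGCCCC, a palindrome bound by Plagl1 in earlier work, was searched on both strands and was present in the Peg3 window alone, against 1.3% of the promoters of measured genes. The GC box GGGCGG, which can lie within a CpG-rich stretch, occurred on either strand in each of the 7 windows except that of Peg3, against 50.2% of the promoters of measured genes. These matches describe letters in 1 window per gene, and imprinted genes can start at several promoters.

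The arrays were of like overall signal, with medians over all probe sets between 3.78 and 3.87 and Pearson correlations across genes between 0.978 and 0.995. The arrays numbered 3 held the highest signals of smooth muscle markers at both ages. The ages were compared in limma, a linear model per gene with a shared prior for the spread, and at an adjusted p under 0.05 it called 0% of the 14506 genes, and 0% with the replicate number as a block. The labels do not say that the arrays came from separate animals or cultures, so p-values measure the spread between these arrays only. In such bulk samples fewer cells of a type and less RNA per cell cannot be told apart.

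Plagl1, a zinc finger transcription factor that halts the cell cycle when overexpressed and is read from the paternal copy in mouse, was the member with the largest difference. Its signal was 7.13, 6.75 and 7.33 in the 21-day-old cultures numbered 1 to 3, against 7.57, 7.81 and 8.29 in the 9-day-old cultures. All 3 older arrays lay below all 3 younger ones, and the gap between the groups was the small one between older replicate 3 and younger replicate 1. The older arrays averaged 7.07 ± 0.29 and the younger ones 7.89 ± 0.37 (SD, n = 3 for either age). The difference was -0.82 ± 0.23 on the log2 scale (SE), with a 95% interval from -1.39 to -0.25, which corresponds to 0.567 of the younger level. In each pair of the same number the older array was lower, by -0.44, -1.06 and -0.96. The limma adjusted p was 1, and the exact two-sided permutation p was 0.10, the smallest that 3 against 3 allows. Of the 14506 genes 21, Plagl1 included, had a difference this low, and 94 had one at least this large in either direction. Plagl1 was listed with its difference known, so this rank describes it and does not test it.

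Dlk1 encodes a membrane and secreted protein with EGF repeats that resembles the Notch ligands, restrains the maturation of fat cells, and is read from the paternal copy in mouse. Its signal was 5.54, 6.51 and 5.74 at 21 days, against 6.57, 6.80 and 6.76 at 9 days. The younger arrays were close together and the older ones were spread, with older replicate 2 almost at the level of younger replicate 1. The groups did not overlap. The older arrays averaged 5.93 ± 0.51 and the younger ones 6.71 ± 0.12 (SD, n = 3 for either age), a log2 difference of -0.78 ± 0.26 (SE) with a 95% interval from -1.41 to -0.15. The older level was 0.583 of the younger. The pairs differed by -1.03, -0.29 and -1.02. The adjusted p was again 1 in limma and the exact permutation p 0.10.

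**Figure D1:**
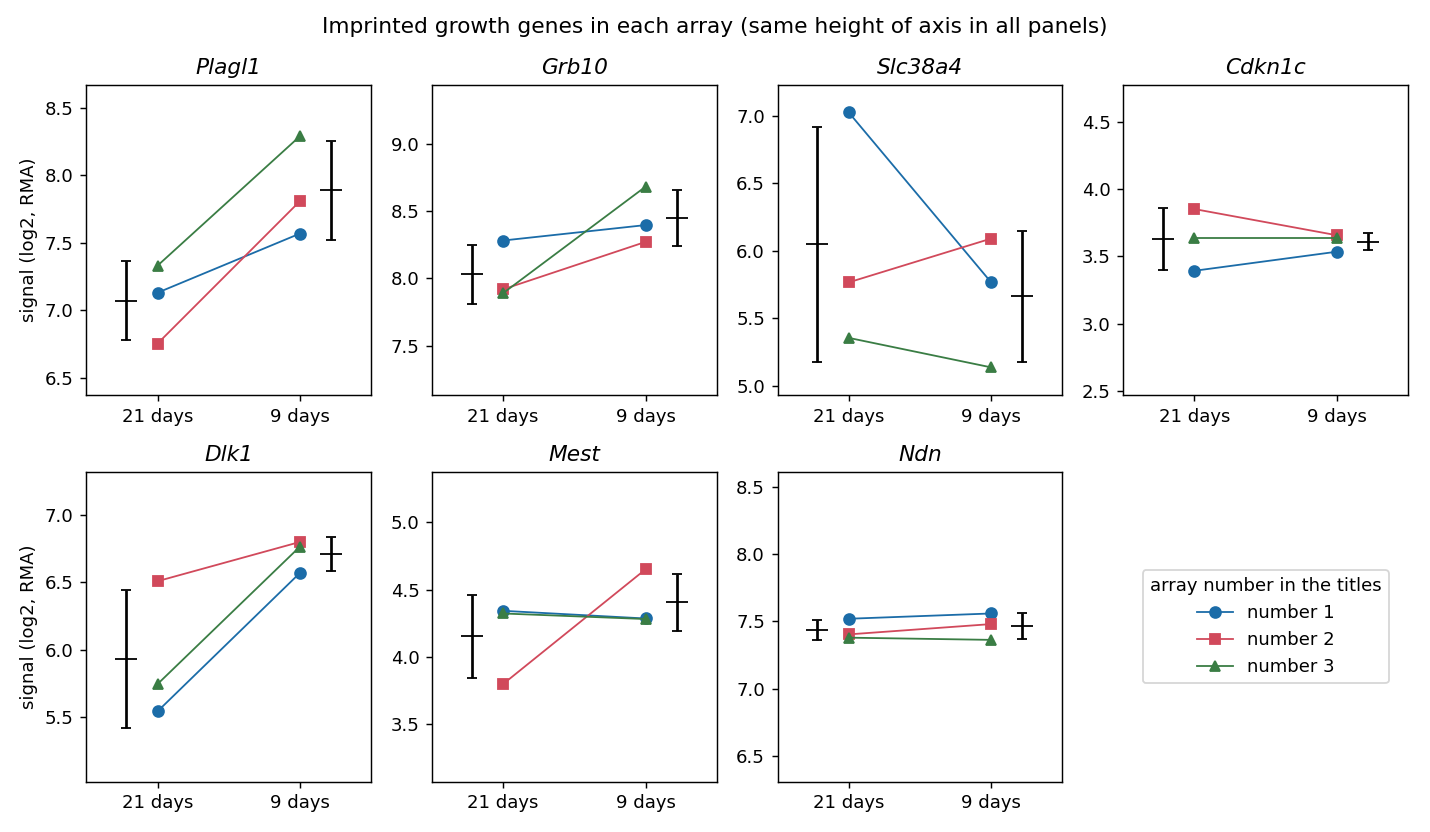
Log2 signal (y axis) of the 7 measured imprinted growth genes at 21 days and 9 days (x axis), with 1 panel per gene and axes of equal height. Points joined by a line are arrays with the same number in their titles, and black bars are means with SD (n = 3). Plagl1 and Dlk1 have no overlap between the ages, Ndn stays between 7.36 and 7.56, and Slc38a4 spreads from 5.14 to 7.03.

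Grb10 encodes an adapter that binds the insulin and IGF1 receptors and dampens their signal, and in most mouse tissues it is read from the maternal copy. Its signal was 8.28, 7.92 and 7.89 at 21 days, against 8.39, 8.27 and 8.68 at 9 days. Older replicate 1 stood just above younger replicate 2, so the groups overlapped by this pair of arrays. The difference was -0.42 ± 0.15 (log2, SE), with a 95% interval from -0.80 to -0.04, or 0.748 of the younger level. All pairs pointed the same way, by -0.11, -0.35 and -0.79, but their size was uneven, and without both arrays numbered 3 the difference was -0.23. The limma adjusted p was 1 and the exact permutation p 0.20.

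Slc38a4 encodes a sodium-coupled transporter of small neutral amino acids, read from the paternal copy in mouse and abundant in placenta and liver. Its signal was 7.03, 5.77 and 5.35 at 21 days, against 5.77, 6.09 and 5.14 at 9 days. A single array, older replicate 1, stood above the rest, and the other 5 overlapped. The difference of 0.38 ± 0.48 (log2, SE) had a 95% interval from -0.80 to 1.57, and it turned to -0.10 without older replicate 1. The pairs differed by 1.26, -0.32 and 0.22. Of the 7 genes it had the widest range over the arrays, 1.89.

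Cdkn1c encodes p57, an inhibitor of cyclin-dependent kinases that is read from the maternal copy in mouse. Its signal was 3.39, 3.85 and 3.64 at 21 days, against 3.53, 3.66 and 3.64 at 9 days. In 5 of the 6 arrays this lay below the median of that array, and no detection calls were used, so a small difference here does not show that expression was the same. The difference was 0.02 ± 0.13 (log2, SE), with an interval from -0.29 to 0.33. The 2 arrays numbered 3 carried the same value.

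Mest encodes a hydrolase of fetal mesoderm and expanding fat tissue, read from the paternal copy in mouse. Its signal was 4.34, 3.80 and 4.32 at 21 days, against 4.29, 4.65 and 4.28 at 9 days. Its difference of -0.25 ± 0.19 (log2, SE) came from the pair numbered 2, which differed by -0.85, while the other pairs differed by 0.06 and 0.04. Without older replicate 2 it was -0.07. The Mest signal of 3.80 in that array lay below the array median of 3.84, and no detection calls were used.

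Ndn encodes necdin, a MAGE family protein that binds E2F1 and restrains the growth of neurons, and it is read from the paternal copy in mouse. Its signal was 7.52, 7.40 and 7.38 at 21 days, against 7.56, 7.48 and 7.36 at 9 days. It was the steadiest of the 7 genes, with a range of 0.20 over all arrays. The difference was -0.03 ± 0.08 (log2, SE), and its 95% interval ran from -0.23 to 0.16.

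Across the list 5 of the 7 genes had a lower mean at 21 days and 2 a higher one, and the median difference was -0.25, beside -0.01 over all genes tested. The 7253 genes of highest mean, which held 5 of the 7, had a median difference of -0.04. Of all 14506 genes 7733 had a lower mean. None of the 7 passed the adjusted test. At an unadjusted p under 0.05 there were 3, Plagl1 (0.0128), Dlk1 (0.0236) and Grb10 (0.0359), all lower, beside 1.52% of all genes that were lower at that p. With the replicate number as a block the same 3 passed the unadjusted p, beside 4.45% of all genes lower at that p, and their adjusted p-values in limma were 0.390, 0.412 and 0.612. Without overlap between the ages and lower at 21 days were 2 of the 7, beside 2.98% of all genes. Lower in each of the 3 pairs were 3 of the 7, beside 14.4% of all genes. The list was written with these differences already known, so its counts describe its members and do not test them.

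**Figure D2:**
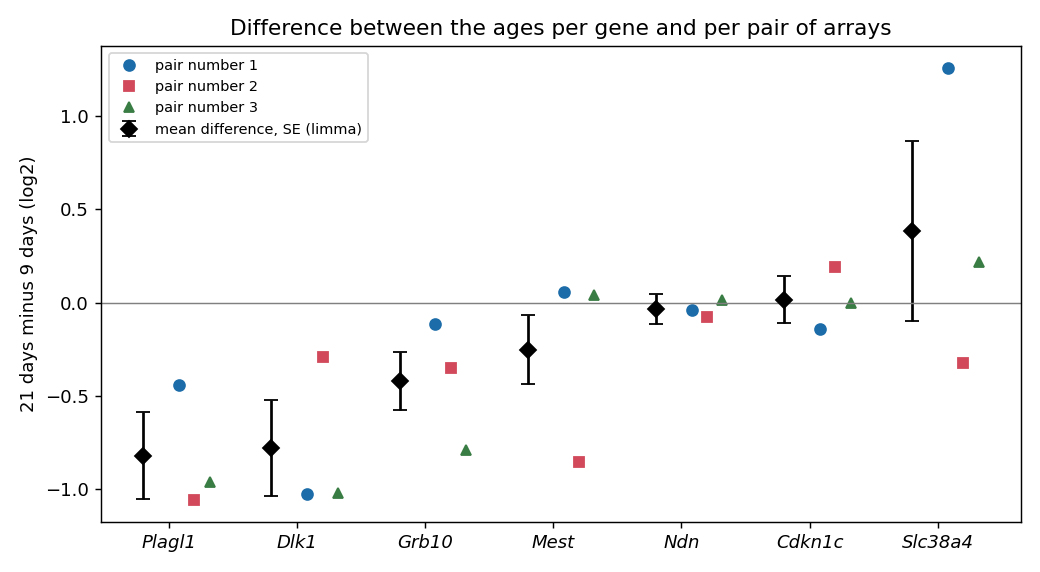
Difference of 21 days minus 9 days on the log2 scale (y axis) for each measured imprinted growth gene (x axis). Diamonds are means with the SE from limma, and coloured points are the differences within each pair of arrays of the same number. The 3 pairs lie below 0 for Plagl1, Dlk1 and Grb10, whereas the mean for Mest rests on pair 2 and the mean for Slc38a4 on pair 1.

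Other imprinted genes had smaller differences for the most part. Of 52 listed, 41 were measured, 23 with a lower and 18 with a higher mean at 21 days, and the median difference was -0.03. Of the 41, 29 differed by less than 0.1 in either direction, beside 8867 of all 14506 genes, and 0 passed the adjusted test. The largest was that of Igf2, the fetal growth factor read from the paternal copy, with 4.13, 4.52 and 4.52 at 21 days, against 4.85, 5.29 and 4.78 at 9 days. The groups did not overlap, and Igf2 differed by -0.58 ± 0.18 (log2, SE; limma unadjusted p 0.0179, adjusted p 1), or 0.667 of the younger level. It was the 1 of the 41 without overlap and lower, beside 2.98% of all genes. It was also the 1 lower at an unadjusted p under 0.05 in limma, beside 1.52% of all genes. H19, the non-coding RNA next to Igf2 that is read from the maternal copy, was at 4.42, 4.47 and 4.36 at 21 days, against 4.34, 4.11 and 4.49 at 9 days. The H19 arrays overlapped, with a difference of 0.10 ± 0.11 that turned to -0.09 when its probe sets were averaged. Igf2r, the receptor that clears Igf2, differed by -0.04 ± 0.24, with 8.08, 7.42 and 8.17 at 21 days, against 8.04, 7.65 and 8.09 at 9 days.

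Among the rest of these imprinted genes, Slc22a18, a transporter gene beside Cdkn1c, was the one whose arrays did not overlap in the higher direction, beside 2.74% of all genes. Its signal was 4.90, 4.94 and 4.87 at 21 days, against 4.26, 4.70 and 4.70 at 9 days. The difference of 0.35 ± 0.13 (log2, SE) had an unadjusted p of 0.0408 in limma, beside 1.45% of all genes higher at that p, and was 0.20 without younger replicate 1. Meg3, a non-coding RNA next to Dlk1 that is read from the maternal copy, differed by -0.42 ± 0.49 (log2, SE), and by 0.03 without younger replicate 3. In the pairs it differed by -0.57, -0.07 and -0.63, and with the replicate number as a block the SE was 0.13 and the limma adjusted p 0.574. Without both arrays numbered 3 the difference was -0.32. Its signal was 4.97, 5.36 and 6.23 at 21 days, against 5.54, 5.43 and 6.85 at 9 days, so the arrays numbered 3 were the highest at both ages. The serotonin receptor gene Htr2a differed by -0.33 ± 0.28, and by -0.09 without older replicate 2.

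Imprinted genes lie in clusters, and the 2 nearest measured genes on each side of the 8 members, by their order in the RefSeq gene table, gave 32 neighbours. Of these 12 had a lower and 20 a higher mean at 21 days, with a median difference of 0.03 and 0 called by limma. The 4 neighbours of Plagl1, namely Stx11, Sf3b5, Ltv1 and Phactr2, differed by 0.03 to 0.13 (log2). Those of Grb10 were Fignl1 at 0.03, Ddc at -0.08, Cobl at 0.15 and Sec61g at 0.08. Beside Dlk1, Wdr25 differed by -0.03, Begain by -0.07, Meg3 by -0.42 and Dio3 by -0.11. The neighbours Usp29 and Zim1 of the unmeasured Peg3 differed by 0.06 and -0.06, and Snrpn and Snurf beside Ndn by 0.09 and 0.04. Around Slc38a4, at 0.38 itself, Slc38a1 differed by 0.37, Slc38a2 by -0.04, Amigo2 by 0.13 and Pced1b by 0.36. The value for Slc38a4 turned to -0.10 without older replicate 1. Around Cdkn1c, at 0.02, Tssc4 differed by -0.04, Kcnq1 by 0.06, Slc22a18 by 0.35 and Phlda2 by 0.05. The neighbours of Plagl1, Grb10 and Dlk1 had differences smaller in size than those of these members, which were listed with their differences known.

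Relatives of the members by protein family were measured for 26 of 28 genes, 12 with a lower and 13 with a higher mean at 21 days and 1 equal within 1e-06. Their median difference was 0.01, and 0 passed the adjusted test. Grb14, an adapter of the same family as Grb10 that also holds back the insulin receptor, had a higher mean at 21 days. Its signal was 3.92, 3.56 and 5.09 at 21 days, against 2.90, 2.70 and 3.00 at 9 days. The groups did not overlap. Of the 26 relatives 1 was without overlap and higher, Grb14, beside 2.74% of all genes. Another 1, Slc38a3, was without overlap and lower, beside 2.98%. Higher at an unadjusted p under 0.05 in limma was 1 of the 26, beside 1.45% of all genes. The difference for Grb14 was 1.33 ± 0.39 (log2, SE; limma unadjusted p 0.0154, adjusted p 1), and it was 0.88 without older replicate 3. The younger signals and that of older replicate 2 lay below the medians of their arrays and were not shown to exceed background, so no fold is given.

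The other kinase inhibitors of the Cdkn1c family had overlapping arrays. Cdkn1a, which encodes p21, was at 8.52, 7.66 and 6.96 at 21 days, against 8.01, 8.01 and 7.52 at 9 days. It differed by -0.13 ± 0.40 (log2, SE), and by 0.24 without older replicate 3. Cdkn1b, which encodes p27, was at 6.58, 6.49 and 6.26 at 21 days, against 6.85, 6.41 and 6.74 at 9 days, a difference of -0.22 ± 0.15. The amino acid transporter gene Slc38a1, a relative and neighbour of Slc38a4, differed by 0.37 ± 0.26. The Notch ligand gene Jag1 differed by 0.38 ± 0.88 and by -0.57 without older replicate 3. Ephx1, a hydrolase gene of the same broad fold as Mest, differed by 0.39 ± 0.20.

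**Figure D3:**
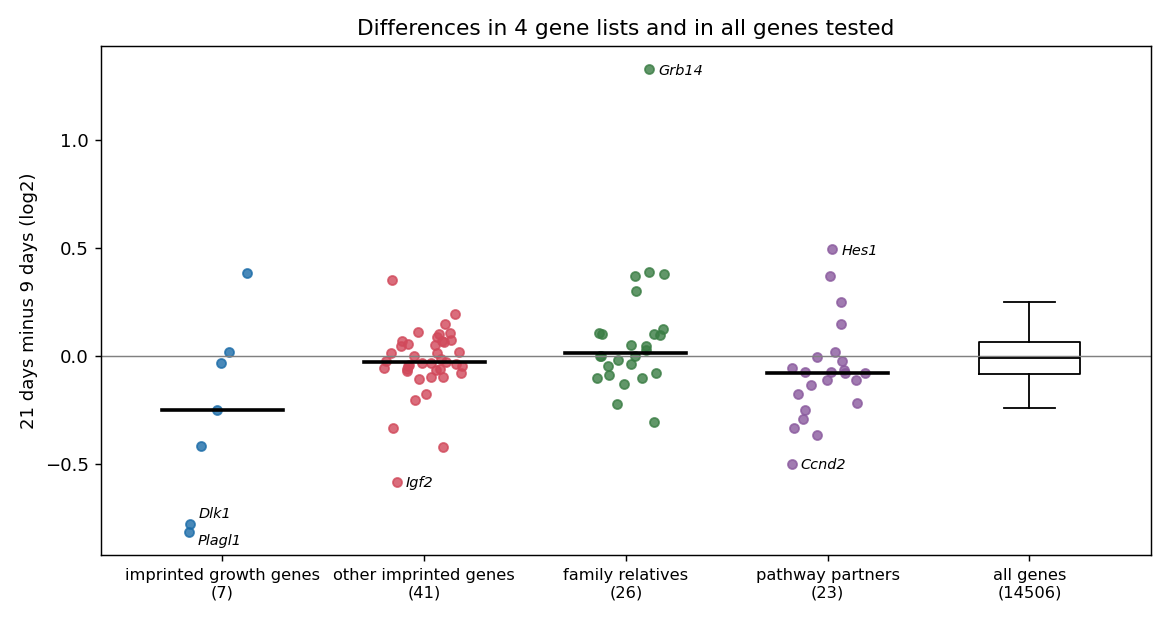
Difference of 21 days minus 9 days on the log2 scale (y axis) for the measured genes of 4 lists, with 1 point per gene and a bar at the median, and for all genes as a box from the lower to the upper quartile with whiskers at the 5th and 95th percentiles. Genes beyond 0.45 in either direction are named. The whiskers end at -0.24 and 0.25, with Plagl1, Dlk1, Grb10 and Igf2 among the genes below the lower one.

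Partners of the pathways in which these genes act were measured for 23 of 26. Of these, 18 had a lower mean at 21 days, as did 7733 of all 14506 genes. Their median difference was -0.08, and 0 passed the adjusted test. The 7253 genes of highest mean, which held 18 of the 23 partners, had a median difference of -0.04, beside -0.01 over all genes. Ccnd2, a D-type cyclin whose kinase partners drive entry into the cell cycle, was at 8.12, 8.66 and 8.81 at 21 days, against 8.85, 9.14 and 9.11 at 9 days. The Ccnd2 arrays did not overlap, and the difference was -0.50 ± 0.20 (log2, SE), or -0.30 without older replicate 1. Insr, the insulin receptor bound by Grb10, was at 7.55, 7.31 and 7.53 at 21 days, against 7.59, 7.74 and 8.06 at 9 days, a difference of -0.34 ± 0.14 with no overlap. The limma unadjusted p for Insr was 0.0573, and the difference was -0.23 when its probe sets were averaged. Igf1r, the other receptor of Grb10, differed by -0.22 ± 0.32 and its arrays overlapped. Hes1, a target of Notch signalling, was at 4.64, 4.31 and 5.02 at 21 days, against 4.29, 4.15 and 4.05 at 9 days. Hes1 differed by 0.49 ± 0.19, again without overlap, and by 0.31 without older replicate 3. Ccna2, the cyclin of DNA replication and entry into mitosis, differed by -0.37 ± 0.26, and by -0.28, -0.48 and -0.34 in the pairs. With the replicate number as a block its SE was 0.08 and its limma adjusted p 0.412. The D-type cyclin gene Ccnd1 differed by 0.37 ± 0.64. Without overlap and lower at 21 days were 3 of the 23 partners, beside 2.98% of all genes. These were Ccnd2, Insr and E2f1, which differed by -0.25 ± 0.08. Without overlap and higher was 1, Hes1, beside 2.74% of all genes. Lower in each of the 3 pairs were 8 of these 23 partners, 4 of the 41 other imprinted genes and 3 of the 26 relatives, beside the 14.4% of all genes.

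The genes with the pattern most like each member were found by the root mean square difference of log2 values, each gene centred on its own mean over the 6 arrays. For Plagl1 these were Galnt17 and Cacna2d1, at 0.14 and 0.15 log2 units, where Plagl1 itself deviated from its mean by 0.49. For Dlk1 they were Pdpn and Lrrc17, at 0.16 and 0.18. For Grb10 they were Fbxo5 and Vegfc, both at 0.06, and for Mest Kcnq5 and Sntb1, both at 0.08. For Slc38a4 they were Cyp26b1 at 0.08 and Klk9 at 0.15, against its own 0.61. Ndn and Cdkn1c deviated little, by 0.07 and 0.14, and the nearest genes, Rpl4 and Zfp385d for Ndn and C3h11orf96 and Kcnn1 for Cdkn1c, were within 0.03. No member was among the nearest pair of another. The closest member to Plagl1 was Grb10, at 0.31.

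Lists of cell markers are given beside these values. The mean of 13 measured Sertoli cell markers lay between 4.95 and 5.95 in the 21-day-old cultures and between 4.65 and 4.88 in the 9-day-old ones, and 11 of the 13 were higher at 21 days. The list held Tf, the iron carrier transferrin, which alone differed by 3.59 (log2). Without Tf, an alternative chosen after seeing the data, the means were 4.67, 5.05 and 5.52 at 21 days and 4.62, 4.77 and 4.68 at 9 days, so the ages overlapped, and the exact permutation p was 0.30, against 0.10 with Tf. Of the 13 markers 5 were below the median signal in every array, namely Amh, Dhh, Fshr, Cldn11 and Cst12. Of the 15 listed, Sox9 and Nr5a1 were not analysed here. All 6 markers of peritubular or smooth muscle cells had a lower mean at 21 days, with list means from 8.43 to 10.7 at 21 days and from 9.23 to 10.9 at 9 days. Of 6 markers of fibroblasts or stroma 5 were lower, with list means from 9.28 to 9.88 at 21 days and from 9.74 to 9.83 at 9 days. None of these 12 markers was below the median signal in every array.

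Within the stromal list Pdgfra, a receptor of mesenchymal cells named after its values had been seen, was at 7.86, 8.24 and 7.70 at 21 days, against 8.48, 8.93 and 8.59 at 9 days. It differed by -0.73 ± 0.18 (log2, SE) and was without overlap and lower, as were 2.98% of all genes. The rest of the stromal list differed less, Col1a1 by -0.08, Col1a2 by -0.18, Col3a1 by -0.14, Dcn by -0.15 and Lum by 0.13. Leydig cell markers had list means from 4.59 to 4.78 at 21 days and from 4.55 to 4.71 at 9 days, and germ cell markers from 3.57 to 3.84 at 21 days and from 3.66 to 3.70 at 9 days. Macrophage markers had list means from 2.85 to 2.95 at 21 days and from 2.80 to 2.93 at 9 days, and endothelial markers from 3.60 to 3.69 at 21 days and from 3.38 to 3.73 at 9 days. The ranges of these 4 lists overlapped between the ages. Plagl1 and the smooth muscle list were highest in the arrays numbered 3 within each age. Dlk1, Grb10 and Igf2 did not share this order. Dlk1 was highest in the arrays numbered 2 at both ages, as were the stromal markers Pdgfra and Dcn. At 9 days Dlk1 was nearly equal in replicates 2 and 3, at 6.80 and 6.76. The mean of the stromal list was highest in older replicate 2, at 9.88, and in younger replicate 1, at 9.83. The stromal markers Col1a1 and Col1a2 were highest in the arrays numbered 3 at both ages, and Col3a1 and Lum kept no such order. Grb10 was lowest in older replicate 3 and highest in younger replicate 3, and Igf2 was lowest in younger replicate 3. The part of these cell types in the lower signals of Plagl1, Dlk1, Grb10 and Igf2 was not tested.

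**Figure D4:**
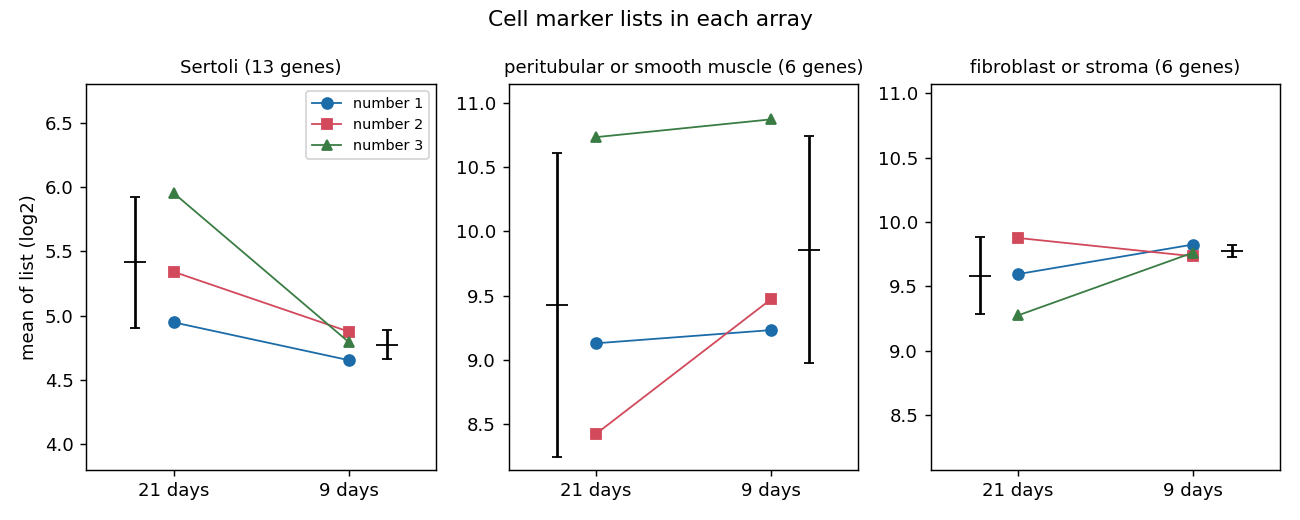
Mean log2 signal (y axis) of 3 lists of cell markers at 21 days and 9 days (x axis), with arrays of the same number joined and black bars for means with SD (n = 3). The Sertoli cell list is higher at 21 days in each pair, and the smooth muscle list is highest in the arrays numbered 3, at 10.7 and 10.9.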

How the data were processed

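Total RNA from cultured cells was measured on 6 Affymetrix arrays, and samples were grouped by the age in their titles. The recorded series type is a binding profile, but the labels describe total RNA, so the values were read as expression. The deposited values are log2 signals of 29214 probe sets, and the tool named in the submitters' processing notes is RMA. This method corrects background, normalizes arrays to equal distributions and summarises probes, which can shrink differences shared by most genes. Neither detection calls nor scan dates were used here, so which signals exceed background is unknown and batches were not tested. The platform annotation gives 1 gene for 15310 probe sets, and the probe set of highest mean was kept for each of 14506 genes. Entrez numbers found in the RefSeq table of GRCr8 for 15279 probe sets changed 0 symbols.

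Ages were compared as 21 days minus 9 days in limma 3.58.1 (R 4.3.3, lmFit and eBayes) over all genes, without covariates, with Benjamini-Hochberg adjustment and a threshold of 0.05. The code was tested on simulated data. The median SE was 0.112. Arrays with the same number in their titles shared their deviations from the age means, at correlations across genes of 0.439, 0.549 and 0.673 for numbers 1, 2 and 3. The numbers were therefore treated as pairs in the block fit, although the labels do not say what they stand for. Members, lists and alternatives were chosen with earlier results of these data known. Named genes are all members, the 4 with the largest difference in each list of other imprinted genes, relatives and partners, and Igf2, H19, Igf2r, Cdkn1a, Cdkn1b, Insr and Igf1r. E2f1 and single cell markers were named after their values had been seen. Promoters were read with Python 3.11.15, and figures drawn with matplotlib 3.10.9.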

Additional observations from a re-analysis of the deposited data

How the results depend on the processing

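In each of the 17 alternatives 0 genes were called, over all genes and in each list. With the replicate block the lowest adjusted p over all genes was 0.132, against 0.685 without it, and the block changed no call. Plagl1, Dlk1, Grb10, Mest and Igf2 were lower at 21 days under every alternative that tested them. Leaving out 1 array at a time gave log2 differences from -0.98 to -0.62 for Plagl1, -1.07 to -0.58 for Dlk1, -0.54 to -0.30 for Grb10, -0.34 to -0.07 for Mest and -0.68 to -0.42 for Igf2. Over all alternatives the adjusted p in limma ran from 0.390 to 1 for Plagl1, 0.412 to 1 for Dlk1 and 0.612 to 1 for Grb10. The direction turned without 1 array for Slc38a4 (-0.10 to 0.73), Cdkn1c (-0.094 to 0.13), Ndn (-0.085 to 0.013), Igf2r (-0.18 to 0.20), Igf1r (-0.45 to 0.041), Cdkn1a (-0.54 to 0.24), Jag1 (-0.57 to 0.96), Meg3 (-0.78 to 0.033) and Ccnd1 (-0.24 to 0.79). Among the others the smallest differences without 1 array included 0.19 for Ephx1, 0.23 for Slc38a1, -0.14 for Ccna2, -0.20 for Insr, 0.0038 for H19 and -0.13 for Cdkn1b.

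Quantile normalization turned Cdkn1c (-6.91e-05), Ndn (0.0073) and Igf2r (0.0059), centring on array medians turned Cdkn1c (-0.0015), array weights turned Cdkn1c (-0.036), Igf2r (0.019) and Cdkn1a (0.053), and averaging probe sets turned H19 (-0.089). Without both arrays numbered 3 Jag1 (-0.10) and Cdkn1a (0.078) turned. The cause was not tested. Keeping the 7253 genes of highest mean left 13 of 21 other imprinted genes and 5 of 12 relatives lower, since fewer genes were tested. The number of arrays and the unknown background limit what low signals such as Cdkn1c can show.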
